A study of Mus musculus with 15 samples.

Results

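Heart muscle makes most of its nicotinamide adenine dinucleotide (NAD) by recycling nicotinamide and, to a lesser extent, by taking up nicotinamide riboside. The levels described here are those of 7 mouse genes of that supply: Nampt, Nmrk1, Nmrk2, Nmnat1, Nmnat3, Nadk2 and Nnt. They were listed by name from what their enzymes do, with earlier results of these data known. Nmrk2 was listed in addition for its high level after aortic constriction in these same libraries, so its values are a description and carry no test. All 7 were among the 15258 genes of each file, and all 7 were among the 11018 genes with enough reads to be tested.

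Left ventricular RNA of male C57BL/6NRj mice was read by BRB-seq, which barcodes each RNA sample and counts the 3′ ends of its transcripts. The 3 groups held 5 libraries each. TAC NRG hearts had transverse aortic constriction (TAC), a surgical narrowing that raises the pressure the left ventricle works against, and a minipump delivering the ERBB receptor ligand neuregulin-1β (NRG). TAC saline hearts had the same constriction with saline in the pump, and sham saline hearts had sham surgery with saline. No sham group with NRG is among the libraries, and the labels give no age, time after surgery or mouse for a library, so a p-value covers only the spread among these libraries.

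In the salvage route NAMPT joins nicotinamide to a phosphoribosyl group and sets the pace, giving nicotinamide mononucleotide. The riboside kinases NMRK1 and NMRK2 reach the same mononucleotide from nicotinamide riboside, and the NMNAT enzymes complete NAD in the nucleus (NMNAT1) or the mitochondrion (NMNAT3). In mitochondria NADK2 phosphorylates NAD to NADP, and the transhydrogenase NNT reduces NADP with the proton gradient, which feeds peroxide removal. NMRK2 is known as the kinase form of skeletal muscle, low in healthy heart.

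Nmrk2 was the only one of the 7 genes that stood higher under constriction. Its level averaged 90.5 ± 57.4 CPM in TAC NRG, 53.8 ± 42.9 CPM in TAC saline and 8.32 ± 1.55 CPM in sham saline (SD, n = 5 each). CPM here undo the log of the deposited values and keep the authors' scaling. The other 6 genes all had negative fold changes against sham in both TAC groups, and Nampt, the pace-setting enzyme, fell in both.

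The 3 genes at the entry to the route differ in the sequence before their start sites, and those promoters are shown because Nmrk2 and Nampt differed from sham in opposite directions and Nmrk1, the other kinase, passed no test. Each run is the 250 bases upstream of the start site in RefSeq, build GRCm38.p6, on the gene's own strand, with capitals marking the motif named after it.
Nmrk2 promoter, chr10:81202038-81202287, minus strand: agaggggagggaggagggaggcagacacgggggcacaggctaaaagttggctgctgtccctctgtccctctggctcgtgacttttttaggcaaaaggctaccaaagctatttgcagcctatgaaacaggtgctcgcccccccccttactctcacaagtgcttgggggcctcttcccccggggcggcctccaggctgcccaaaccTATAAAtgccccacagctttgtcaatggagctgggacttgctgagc
Nmrk1 promoter, chr19:18631766-18632015, plus strand: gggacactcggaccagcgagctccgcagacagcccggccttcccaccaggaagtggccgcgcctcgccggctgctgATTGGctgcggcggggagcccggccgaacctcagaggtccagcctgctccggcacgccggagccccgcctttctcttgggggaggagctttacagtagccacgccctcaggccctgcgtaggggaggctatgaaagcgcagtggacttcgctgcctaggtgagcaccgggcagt
Nampt promoter, chr12:32820085-32820334, plus strand: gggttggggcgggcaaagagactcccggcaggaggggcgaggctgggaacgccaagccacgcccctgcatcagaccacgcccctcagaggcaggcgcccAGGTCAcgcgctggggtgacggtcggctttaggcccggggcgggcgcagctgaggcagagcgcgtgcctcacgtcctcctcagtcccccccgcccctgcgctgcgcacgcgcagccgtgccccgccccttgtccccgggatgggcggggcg
The Nmrk2 promoter held 5 CG pairs and a TATAAA run 46 to 41 bases before the start, a motif found in 12.4% of 32851 promoters of this length. The Nampt promoter held 27 CG pairs and the run AGGTCA, the core letters of nuclear receptor elements, 151 to 146 bases before the start, where 14.0% of promoters have it. The Nmrk1 promoter held 21 CG pairs and CCAAT on the other strand, as ATTGG, 174 to 170 bases before the start. CCAAT occurred in 33.9% of promoters. The median promoter held 6 CG pairs and 52.4% G and C, against 58.8% for Nmrk2, 69.2% for Nmrk1 and 75.6% for Nampt. The search on both strands also covered the TEAD motif CATTCC (in 12.6% of promoters), the AP-1 motif TGANTCA (6.75%), the CArG box (1.47%) and the MEF2 site (2.92%), and none of these was in the 3 windows. A match describes letters only, and no binding was measured.

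Library facts that touch the results follow. Recovered reads ranged from 2.02 to 5.62 M per library, and TAC NRG 4 and 5 were the shallowest at 2.02 and 2.13 M. Haemoglobin genes took 0.366% and 0.350% of their reads, against 0.222%, 0.200% and 0.189% in TAC NRG 1, 2 and 3. By chi-square per degree of freedom of reads, where higher is less alike, TAC NRG 4 and 5 scored 2.27 together. Against TAC NRG 1, 2 and 3 they scored 6.78 to 10.9, while TAC NRG 2 and 3 scored 8.62 with each other. The 10 cardiomyocyte markers summed to 72393 to 89691 CPM in TAC NRG. Their sum was 73456 to 86904 CPM in TAC saline and 79114 to 85736 CPM in sham saline. These sums hide changes in both directions. Against sham saline 2 of the 10 passed as higher and 3 as lower in TAC saline, and 2 and 4 in TAC NRG. Actc1, an abundant member, averaged 20576 CPM in TAC NRG, 19707 CPM in TAC saline and 15119 CPM in sham saline. Tnni3 went the other way, at 9067, 8518 and 11460 CPM. The 2 atrial markers measured of 4 summed to no more than 5.69 CPM, in keeping with the ventricular label. Mitochondrially encoded genes took 25.8% ± 2.35 of reads in TAC NRG and 27.7% ± 1.62 in TAC saline, against 31.1% ± 0.47 in sham saline. The 7 fibroblast markers summed to 1600 to 2826 CPM in TAC NRG and 1291 to 2282 CPM in TAC saline, against 958 to 1064 CPM in sham saline. For both measures each TAC group differed from sham saline by exact two-sided permutation (p = 0.0079, the smallest 5 against 5 libraries allow, and adjusted p = 0.0357 over 27 library comparisons). In bulk tissue, fewer cells of a type and less RNA per cell cannot be told apart.

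Nampt comes first in the route and fell in both TAC groups. The 5 TAC NRG libraries held 137, 156, 130, 146 and 161 CPM, the TAC saline libraries 130, 163, 192, 163 and 140 CPM and the sham saline libraries 201, 236, 219, 233 and 204 CPM. Every sham saline library lay above all 10 TAC libraries. The fall was 0.48 ± 0.09 on the log2 scale in TAC saline against sham saline, to 0.717 of the sham level (SE, limma adjusted p = 0.0016), and 0.58 ± 0.09 in TAC NRG against sham saline, to 0.667 of it (limma adjusted p = 0.00011). It was below all sham libraries in each comparison, as were 3.68% of tested genes in TAC saline and 5.45% in TAC NRG. Both calls held in each of the 23 alternative settings run. Between TAC NRG and TAC saline Nampt differed by -0.10 on the log2 scale (95% interval -0.30 to 0.09, limma adjusted p = 0.643), and the libraries overlapped.

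Nmrk2, the muscle riboside kinase, separated TAC from sham saline libraries completely. Its level was 56.8, 33.8, 184, 93.1 and 84.6 CPM in the TAC NRG libraries, 54.2, 18.6, 17.5, 55.8 and 123 CPM in TAC saline and 7.89, 8.84, 10.7, 6.56 and 7.63 CPM in sham saline. The lowest TAC library, TAC saline 3, was above the highest sham library. As reads, these rest on 191 to 723 per library in TAC NRG, 50 to 511 in TAC saline and 21 to 35 in sham saline.

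**Figure D1:**
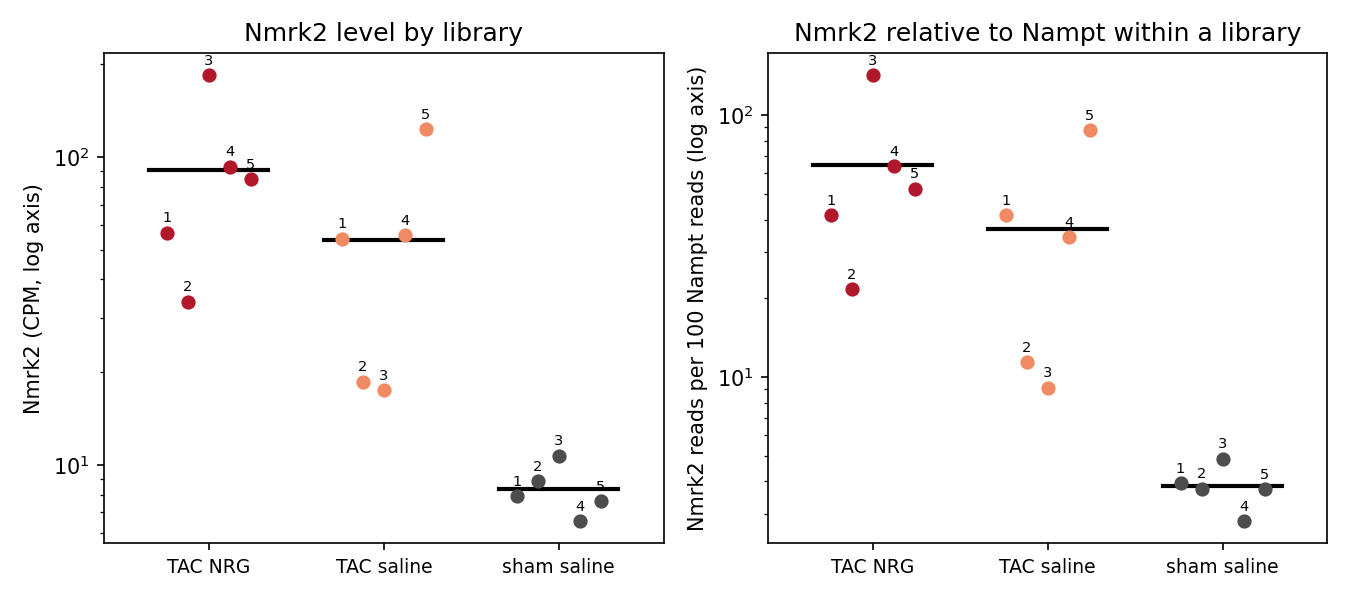
Nmrk2 level in CPM (left) and Nmrk2 reads per 100 Nampt reads of the same library (right), both on log axes, for TAC NRG, TAC saline and sham saline; points are libraries with their replicate number and bars are means of 5. Sham libraries lie at 6.56 to 10.7 CPM, below every TAC library, and the TAC groups overlap.

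The spread within the constricted groups was wide. The highest library was 5.45-fold above the lowest in TAC NRG and 7.03-fold in TAC saline, against 1.63-fold in sham saline. For Nampt these ratios were 1.24 in TAC NRG, 1.47 in TAC saline and 1.17 in sham saline. Nmrk2 thus varied far more between TAC libraries than Nampt did.

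The mean log2 difference of Nmrk2 was 2.33 ± 0.40 (SE) in TAC saline against sham saline, a level 5.04-fold higher. It was 3.24 ± 0.40 in TAC NRG against sham saline, 9.44-fold higher. These are the 27th and the 6th highest of 11018 log2 fold changes, with no test since the gene was picked for this difference. Every library of each TAC group lay above all sham libraries, as was so for 4.72% of genes in TAC saline and 6.23% in TAC NRG. The fibroblast marker sum and the mitochondrial share given above moved with Nmrk2 as well, and their part in it was not tested.

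TAC NRG libraries averaged 0.91 ± 0.40 (SE) above TAC saline libraries in Nmrk2 on the log2 scale, a level 1.87-fold higher. The SE comes from the fit shared by all 15 libraries, the narrow sham saline group included, and is the same in each comparison. It therefore understates the spread of Nmrk2 among the TAC libraries alone. The groups overlapped, and TAC NRG 3 alone was above every TAC saline library. Non-overlapping higher libraries occurred for 1.81% of genes in this comparison and lower ones for 1.25%. Leaving out 1 library moved the log2 difference between 0.59 and 1.30, and without TAC NRG 4 and 5 together it was 0.77. Blood and vessel transcripts also differed between these groups: haemoglobin genes took 0.266% ± 0.086 of reads in TAC NRG, against 0.131% ± 0.020 in TAC saline, and 5 endothelial markers summed to 413 ± 27.9 CPM in TAC NRG, against 510 ± 36.5 CPM in TAC saline (SD, n = 5 each). Their part in the Nmrk2 difference was not tested.

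Set against Nampt within the same library, which removes the scaling of that library, Nmrk2 was again higher in every TAC library than in any sham library. There were 41.6, 21.7, 142, 64.0 and 52.5 Nmrk2 reads per 100 Nampt reads in TAC NRG, 41.6, 11.4, 9.12, 34.3 and 87.8 in TAC saline, and 3.93, 3.75, 4.89, 2.82 and 3.74 in sham saline. In TAC NRG 3 the riboside kinase outnumbered Nampt in reads, and in no other library did it. The mean log2 ratio differed by 2.81 between TAC saline and sham saline, by 3.82 between TAC NRG and sham saline and by 1.01 between TAC NRG and TAC saline. Each value is the Nmrk2 difference less the Nampt difference given above. What lies beyond the Nmrk2 difference therefore comes from Nampt and adds nothing to the Nmrk2 result. BRB-seq counts transcript ends, so these ratios compare libraries and not the amounts of the 2 transcripts.

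Skeletal muscle markers were measured beside Nmrk2, since NMRK2 is abundant in that muscle. Of 13 skeletal muscle markers 6 were in the files, and they summed to 44.0 to 68.0 CPM in TAC NRG, 43.3 to 80.2 CPM in TAC saline and 41.6 to 58.8 CPM in sham saline. Myl1, a myosin light chain, made up 87.1% to 97.1% of these sums, so they say little of the other 5 markers. Those 5 together had 3, 5, 32, 3 and 7 reads in the TAC NRG libraries, 5 to 9 in TAC saline and 8 to 10 in sham saline. TAC NRG 3, the library with the most Nmrk2, held the 32, among them 6 reads of Myh4, a fast skeletal myosin that had 1 read in each of TAC saline 3 and 5 and none in any other library. The part of skeletal muscle transcripts in the Nmrk2 level was not tested. Without TAC NRG 3 the log2 difference of Nmrk2 was 0.59 in TAC NRG against TAC saline and 2.93 in TAC NRG against sham saline.

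Nmrk1, the riboside kinase of most tissues, was close to the lowest level that can be tested. It had 3.46, 3.74, 1.40, 1.16 and 1.99 CPM in TAC NRG, 3.90, 1.38, 3.64, 1.61 and 3.49 CPM in TAC saline and 2.78, 3.03, 1.44, 4.73 and 2.84 CPM in sham saline, from 2 to 21 reads a library. All 3 groups overlapped, and the sign of the TAC saline difference turned to 0.08 without sham saline 4, 0.11 without TAC saline 2 and 0.05 without TAC saline 4. The log2 difference was -0.11 (95% interval -0.98 to 0.75, limma adjusted p = 0.911) in TAC saline against sham saline. Against sham saline TAC NRG differed by -0.39 (95% interval -1.26 to 0.48, limma adjusted p = 0.593). These intervals were wide at this depth, and changes of Nmrk1 within them are not excluded.

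Nmnat1, the nuclear enzyme that completes NAD, was lower under constriction by a margin close to the spread. It had 29.7, 24.8, 22.5, 17.4 and 20.1 CPM in TAC NRG, 17.8, 20.4, 25.5, 23.6 and 22.5 CPM in TAC saline and 27.2, 33.9, 27.3, 27.3 and 32.2 CPM in sham saline. All 5 TAC saline libraries were below all sham libraries, while TAC NRG 1 was inside the sham range. Nmnat1 fell by 0.44 ± 0.14 (SE) on the log2 scale in TAC saline against sham saline (limma adjusted p = 0.0411). That call was lost, with limma adjusted p between 0.0515 and 0.131, without any one of the 5 sham libraries or of TAC saline 1, 2, 4 or 5. It was lost too when libraries were scaled by total reads alone (adjusted p = 0.133) or by total reads free of mitochondrial genes (adjusted p = 0.0758). In TAC NRG against sham saline the difference was -0.39 ± 0.14 (SE, limma adjusted p = 0.0552), and it passed only without TAC NRG 1 (adjusted p = 0.0177).

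Nmnat3, the mitochondrial counterpart, fell in the hearts with neuregulin. It had 16.7, 19.2, 11.6, 13.7 and 22.3 CPM in TAC NRG, 17.8, 17.4, 24.8, 16.9 and 18.6 CPM in TAC saline and 21.0, 24.1, 26.3, 23.0 and 26.8 CPM in sham saline. One TAC NRG library and one TAC saline library reached into the sham range. Nmnat3 fell by 0.57 ± 0.16 (SE) in TAC NRG against sham saline, 1.49-fold (limma adjusted p = 0.0136), and the call held in all 23 alternative settings. In TAC saline against sham saline the difference was -0.35 ± 0.16 (limma adjusted p = 0.159), and between TAC NRG and TAC saline it was -0.22 (95% interval -0.54 to 0.10, limma adjusted p = 0.542).

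**Figure D2:**
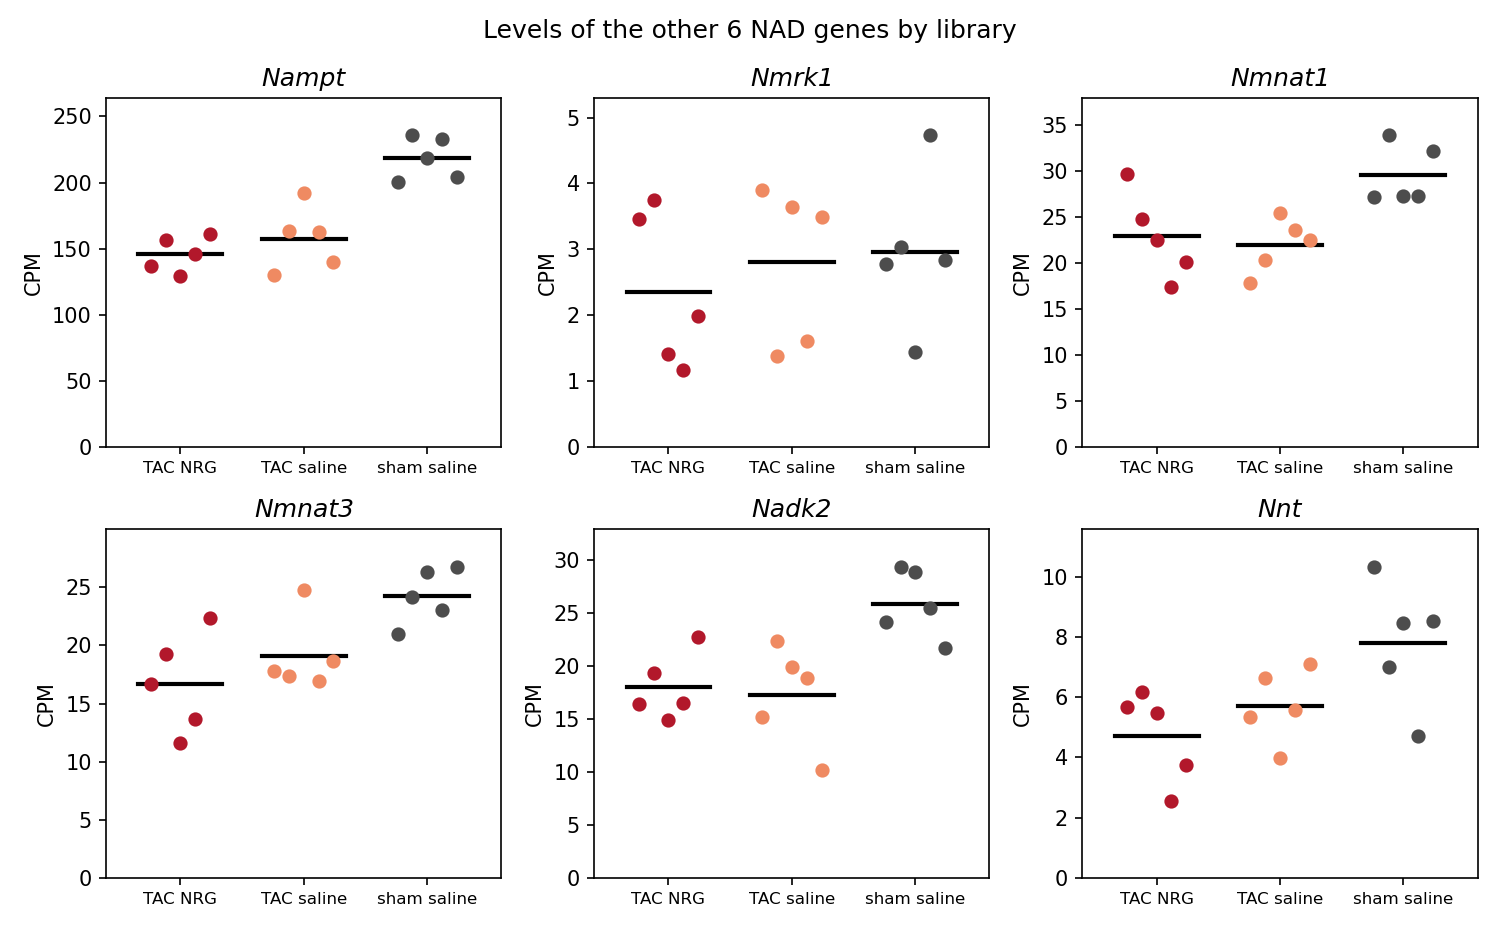
Levels in CPM of Nampt, Nmrk1, Nmnat1, Nmnat3, Nadk2 and Nnt in each library of TAC NRG, TAC saline and sham saline; bars are means of 5 and every axis starts at 0. All sham Nampt points lie above all TAC points, while for Nmrk1 the groups overlap fully.

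Nadk2, the mitochondrial NAD kinase, fell in both TAC groups. It had 16.5, 19.4, 14.9, 16.5 and 22.8 CPM in TAC NRG, 15.2, 22.4, 19.9, 18.9 and 10.2 CPM in TAC saline and 24.1, 29.4, 28.9, 25.5 and 21.7 CPM in sham saline. Sham saline 5, the lowest sham library, lay below the highest library of each TAC group. The fall was 0.62 ± 0.17 (SE) on the log2 scale in TAC saline, 1.54-fold (limma adjusted p = 0.0199), and 0.53 ± 0.17 in TAC NRG, 1.45-fold (limma adjusted p = 0.0349). The first call needed sham saline 2 and 3 and TAC saline 1 and 5, each of which ended it when left out (adjusted p 0.0540 to 0.0796). The second was lost without sham saline 1, 2, 3 or 4 or TAC NRG 1, 3 or 4 (adjusted p 0.0502 to 0.0854) and when libraries were scaled by total reads alone (adjusted p = 0.0664).

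Nnt, the proton-driven transhydrogenase, was read in all 15 of these C57BL/6NRj libraries. The gene is deleted in part in the related C57BL/6J substrain, and counts of 3′ ends do not show whether the whole gene is present. It had 5.67, 6.18, 5.48, 2.55 and 3.76 CPM in TAC NRG, 5.35, 6.62, 3.98, 5.56 and 7.09 CPM in TAC saline and 10.3, 6.99, 8.45, 4.73 and 8.53 CPM in sham saline. No TAC NRG library was above 6.18 CPM, and sham saline 4 lay inside the ranges of both TAC groups. The log2 difference was -0.75 ± 0.26 (SE) in TAC NRG against sham saline (limma adjusted p = 0.0523) and -0.43 ± 0.26 in TAC saline against sham saline (limma adjusted p = 0.341). The TAC NRG difference passed the threshold without sham saline 4, TAC saline 3, TAC NRG 1 or TAC NRG 2 (adjusted p 0.0216 to 0.0484), or with a pseudocount of 1 CPM (adjusted p = 0.0492). TAC NRG 4 and 5, the shallow libraries, hold its lowest levels from 5 and 8 reads.

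Counted together, 3 of the 6 genes other than Nmrk2 fell in TAC saline against sham saline (Nampt, Nmnat1, Nadk2), where 4.24% of tested genes fell. In TAC NRG against sham saline 3 of the 6 fell (Nampt, Nmnat3, Nadk2), where 7.39% of tested genes did. None rose in either comparison, beside 6.47% and 8.74% of genes. Between TAC NRG and TAC saline none of the 6 passed by limma at an adjusted p of 0.05, in a comparison where 1.30% of genes passed, 0.672% higher and 0.626% lower. None of the 6 passed at an unadjusted p of 0.05 either, where 15.3% of genes did. The median log2 difference of the 6 was -0.43 in TAC saline and -0.55 in TAC NRG against sham saline, beside -0.01 for all genes tested in each. The TAC saline count dropped to 1 when either sham saline 2 or 3, or either TAC saline 1 or 5, was left out. Both comparisons use the same sham libraries. The genes were listed with earlier results of these data known, so these counts describe the genes and are not a test of them as a set.

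**Figure D3:**
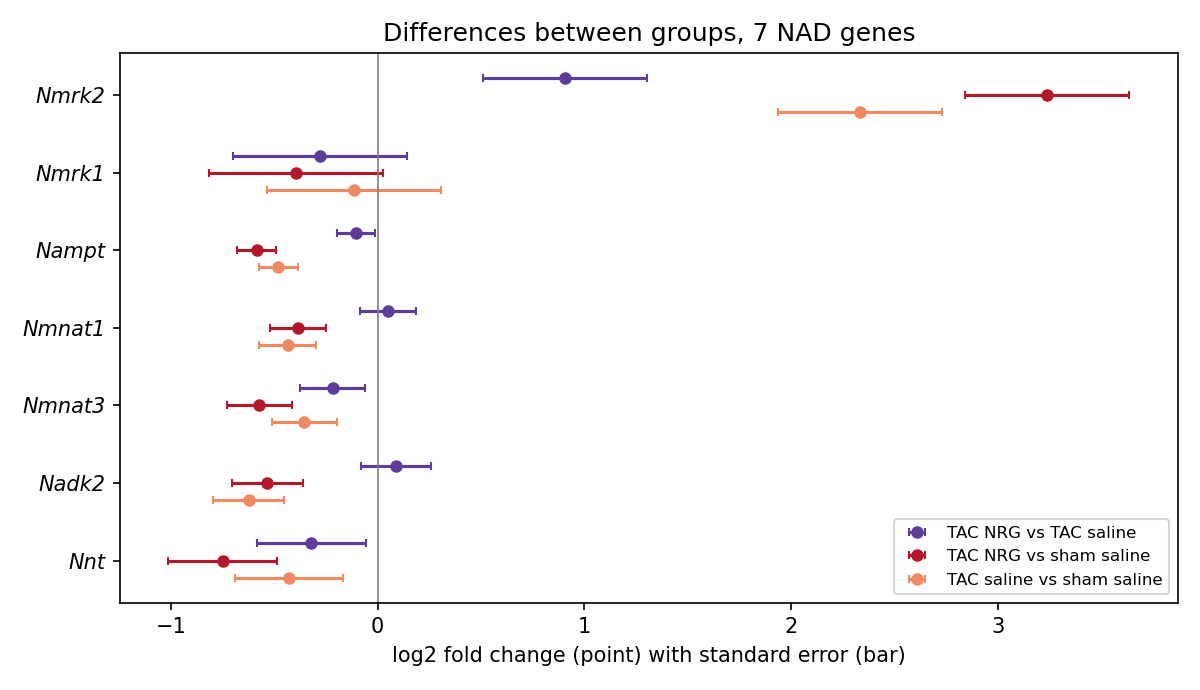
log2 fold change (points) with standard error (bars) of the 7 genes in TAC NRG against TAC saline, TAC NRG against sham saline and TAC saline against sham saline. Each standard error is from the fit shared by all 15 libraries. Nmrk2 lies at 0.91, 3.24 and 2.33, and the other 6 genes lie left of 0 in both comparisons with sham saline.

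Among the 10 TAC libraries, Nmrk2 was higher where mitochondrial transcripts took less of the library. These relations describe a gene picked from these libraries, 8 of them were computed after the data were seen, and none carries a test. With the mitochondrial share Pearson's r was -0.879 and Spearman's rho was -0.842 (n = 10). Without TAC NRG 3 and TAC saline 3, the libraries farthest from the median Nmrk2 level, r was -0.829, and r was -0.849 after each group's mean was taken out. Each group alone holds too few libraries for a value of its own.

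Nmrk2 was also higher where the summed CPM of the 7 fibroblast markers was high. That sum follows its abundant members. Col3a1 averaged 632 CPM in TAC NRG, 550 CPM in TAC saline and 158 CPM in sham saline. Pdgfra averaged 17.7 CPM in both TAC groups and 17.2 CPM in sham saline. Against sham saline 5 of the 7 markers passed as higher in each TAC group. With the log2 fibroblast marker sum r was 0.834 and rho was 0.842 (n = 10). Without TAC NRG 3 and TAC saline 3 r was 0.599, so part of its size rests on those libraries, and with group means taken out it was 0.826. The fibroblast markers and the mitochondrial share come from the same libraries as Nmrk2, and which of them goes with Nmrk2 on its own was not tested.

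Of the other NAD genes Nampt had the strongest relation with Nmrk2 across the 10 TAC libraries, with r of -0.719 and rho of -0.673, and r was -0.404 without the 2 farthest libraries. Nadk2 gave r of -0.616 and rho of -0.612, and r was -0.615 without those 2. For Nmnat3, Nmrk1, Nmnat1 and Nnt r lay between -0.606 and -0.107.

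**Figure D4:**
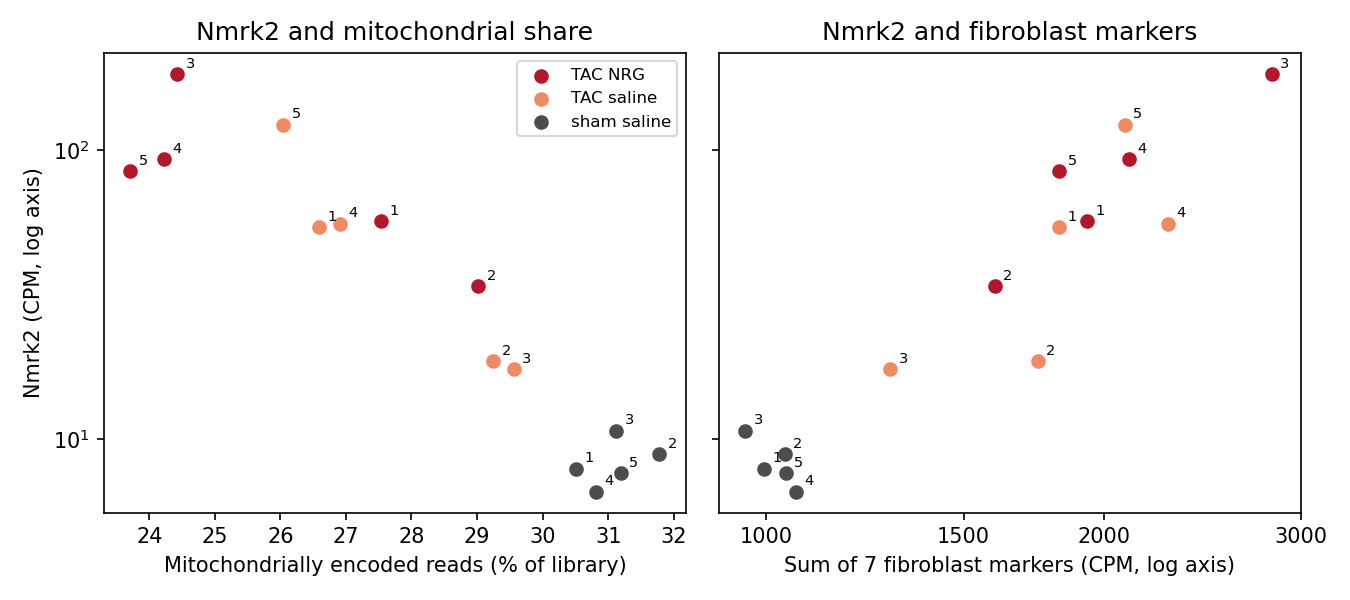
Nmrk2 in CPM (log axis) against the percentage of reads from mitochondrially encoded genes (left) and against the summed CPM of 7 fibroblast markers (right, log axis), with each library's replicate number. TAC NRG 3 has the highest Nmrk2 at 184 CPM and sham libraries lie lowest, with the highest mitochondrial share.

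The genes whose pattern was most like that of Nmrk2 were Postn, Thbs4, Lox, Cilp and Nppa. Likeness was the root mean square difference over 15 libraries between log2 values, each taken relative to the gene's own sham mean. The median of 9634 genes scored 2.46. An unchanged gene scores about the distance of Nmrk2 from its own sham mean, so that median follows from the size of the Nmrk2 rise. A low score therefore needs a rise of like size, and the median is no measure of likeness beyond that. Postn, a matricellular protein, scored 0.53, with 323 ± 120 CPM in TAC NRG, 265 ± 138 CPM in TAC saline and 35.0 ± 10.3 CPM in sham saline. Thbs4, a thrombospondin, scored 0.54, with 66.7 ± 31.7 CPM in TAC NRG, 30.2 ± 13.6 CPM in TAC saline and 7.96 ± 1.73 CPM in sham saline. Lox, a collagen crosslinking enzyme, scored 0.62 with 22.6 ± 15.8 CPM in TAC NRG, 14.4 ± 6.39 CPM in TAC saline and 3.58 ± 0.93 CPM in sham saline. Cilp, a matrix protein, scored 0.73, and Nppa, the atrial natriuretic peptide of stressed muscle, scored 0.74 (SD, n = 5 for each level).

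Other NAD genes were read in lists chosen by function, with earlier results of these data known. The other supply genes, which cover the nicotinic acid and tryptophan routes, transporters and nucleoside handling, had 9 of 20 tested, with 0 past the threshold in TAC saline against sham saline, where 10.7% of all genes passed. In TAC NRG against sham saline, where 16.1% passed, 1 rose: Pnp, the nucleoside phosphorylase that splits nicotinamide riboside, at 25.3 ± 4.59 CPM in TAC NRG against 18.8 ± 2.72 CPM in sham saline (SD, n = 5 each). Its call was lost without any of 10 libraries, namely sham saline 1, 2, 4 or 5, TAC saline 1, 2 or 4, or TAC NRG 1, 3 or 4 (limma adjusted p 0.0539 to 0.137). In TAC saline against sham saline Pnp differed by 0.34 ± 0.14 (SE) on the log2 scale (limma adjusted p = 0.146). Qprt, Nmnat2, Tdo2, Ido2, Kynu, Haao and Acmsd were not analysed here.

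Of 30 genes listed by family as NAD-consuming enzymes (sirtuins, poly-ADP-ribose polymerases, ADP-ribosyltransferases and NAD glycohydrolases) 28 were tested. Whether each protein consumes NAD in these hearts was not measured. In TAC saline against sham saline 2 rose (7.14%) and 2 fell (7.14%), beside 6.47% of all genes higher and 4.24% lower. Parp16, a mono-ADP-ribosyltransferase of the endoplasmic reticulum, rose by 0.78 ± 0.21 (SE) on the log2 scale, lost only without TAC saline 4 (limma adjusted p = 0.0511). Parp9 rose by 0.49 ± 0.15, lost without sham saline 1 or 3 or TAC saline 1, 2, 4 or 5 (adjusted p 0.0561 to 0.104). Art4 fell by 0.85 ± 0.21 in all settings run. Art3 fell by 0.36 ± 0.10, lost without sham saline 1, 3 or 5 or TAC saline 1, 4 or 5 (adjusted p 0.0503 to 0.0974).

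In TAC NRG against sham saline 2 genes of the consumer list fell (7.14%) and 0 rose. The share lower is close to the 7.39% of all genes, and 8.74% of all genes were higher. Art4 fell by 0.61 ± 0.21 (SE), lost without any sham library, TAC saline 3 or 5 or TAC NRG 1, 2 or 3 (limma adjusted p 0.0507 to 0.158). Parp8 fell by 0.54 ± 0.18, lost without sham saline 2, 3 or 4 or TAC NRG 1, 2, 3 or 4 (adjusted p 0.0537 to 0.104). In TAC saline against sham saline Parp8 differed by -0.32 ± 0.18 (limma adjusted p = 0.285). The sirtuins, Parp1 and Cd38 did not pass in any comparison. The list's median log2 difference was 0.03 in TAC saline and -0.01 in TAC NRG against sham saline.

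Of 9 genes for nicotinamide and NAD clearance 8 were tested, and Aox3 was not analysed here. Enpp1, an ectoenzyme that splits nucleotides outside the cell, rose by 1.32 ± 0.33 (SE) on the log2 scale in TAC NRG against sham saline. That was 2.50-fold, and the call held in all settings run. In TAC saline against sham saline Enpp1 differed by 0.97 ± 0.33 (limma adjusted p = 0.0586). Between TAC NRG and TAC saline it differed by 0.36 (limma adjusted p = 0.651). Nnmt, which methylates nicotinamide and removes it from salvage, rose by 0.91 ± 0.29 in TAC saline and 0.88 ± 0.29 in TAC NRG. These calls were lost without any of 9 libraries (sham saline 1, 3, 4 or 5, TAC saline 1, 2, 4 or 5, TAC NRG 1; limma adjusted p 0.0538 to 0.113) and any of 7 (sham saline 1, 3, 4 or 5, TAC NRG 1, 3 or 5; adjusted p 0.0567 to 0.133). Nudt5, which splits ADP-ribose, rose by 0.75 ± 0.23 in TAC saline, lost without sham saline 1, 2 or 5 or TAC saline 1, 3, 4 or 5 (adjusted p 0.0507 to 0.114). Nnmt is also made by fibroblasts, whose marker sum rose with it, and the part of that was not tested.

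Of 14 genes listed for NADPH production 12 were tested, and the cofactor that each enzyme uses was not measured. Mthfd2, the mitochondrial folate dehydrogenase, rose by 1.36 ± 0.40 (SE) on the log2 scale in TAC saline and 1.23 ± 0.40 in TAC NRG against sham saline. The TAC saline call ended when sham saline 2 or either of TAC saline 1 and 5 was left out (limma adjusted p 0.0779 to 0.105), and the TAC NRG call when sham saline 1 or 2 or TAC NRG 1, 3, 4 or 5 was (adjusted p 0.0505 to 0.107). Me3, a mitochondrial malic enzyme, fell by 0.39 ± 0.10 in TAC NRG against sham saline, in all settings run. Its level was 59.1 ± 7.69 CPM in TAC NRG against 76.9 ± 6.80 CPM in sham saline (SD, n = 5 each). In TAC saline against sham saline Me3 differed by -0.29 ± 0.10 (limma adjusted p = 0.0611). Between TAC NRG and TAC saline it differed by -0.09 (limma adjusted p = 0.709).

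All 8 genes listed as users of mitochondrial NADPH were tested, and the use each protein makes of it was not measured. Prdx3, the mitochondrial peroxiredoxin, fell by 0.29 ± 0.07 (SE) on the log2 scale in TAC saline and 0.27 ± 0.07 in TAC NRG. Its TAC saline call was lost without TAC saline 5 (limma adjusted p = 0.0506), and both calls when libraries were scaled by total reads alone (adjusted p = 0.0568 in TAC saline and 0.0559 in TAC NRG). Prdx5 fell by 0.26 ± 0.08 in TAC saline, lost without any sham library or TAC saline 1, 4 or 5 (adjusted p 0.0534 to 0.124). Gpx1, a glutathione peroxidase, rose by 0.33 ± 0.10 in TAC saline and 0.39 ± 0.10 in TAC NRG. The TAC saline call was lost without sham saline 1, 3 or 5 or TAC saline 1, 2, 4 or 5 (adjusted p 0.0569 to 0.134), and the TAC NRG call without TAC NRG 4 and 5 together (adjusted p = 0.0579).

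AMPK, the energy-sensing kinase, and the fat oxidation receptor PPAR alpha are described upstream of Nmrk2 in mouse heart, and 7 of 8 listed genes were tested. Ppara, the receptor's gene, had 6.77, 9.83, 9.81, 2.55 and 0.66 CPM in TAC NRG, 10.8, 10.4, 11.9, 6.80 and 7.09 CPM in TAC saline and 12.6, 5.14, 7.18, 13.3 and 7.93 CPM in sham saline. Its lowest levels were in the shallow TAC NRG 4 and 5, from 5 reads and 1 read. The log2 difference was -1.17 ± 0.49 (SE) in TAC NRG against TAC saline (limma adjusted p = 0.249, unadjusted 0.024), -1.09 ± 0.49 in TAC NRG against sham saline (limma adjusted p = 0.133, unadjusted 0.034) and 0.08 ± 0.49 in TAC saline against sham saline (limma adjusted p = 0.947). Prkab1, a regulatory subunit of AMPK, fell by 0.50 ± 0.10 (SE) on the log2 scale in TAC saline and 0.43 ± 0.10 in TAC NRG against sham saline, in all settings run. Prkaa2, the muscle catalytic subunit, fell by 0.31 ± 0.10 in TAC saline and 0.48 ± 0.10 in TAC NRG. Prkag2, the gamma subunit tied to inherited cardiomyopathy, rose by 0.48 ± 0.16 in TAC saline and 0.69 ± 0.16 in TAC NRG, and Prkag1 fell by 0.37 ± 0.11 in TAC saline. The TAC NRG calls of Prkaa2 and Prkag2 held in all settings run, while the TAC saline calls did not. Those were lost for Prkaa2 without sham saline 1, 3, 4 or 5, TAC saline 1, 2, 4 or 5 or TAC NRG 1 (limma adjusted p 0.0515 to 0.127). For Prkag2 they were lost without sham saline 2, 3 or 4, TAC saline 1, 4 or 5 or TAC NRG 1, 2 or 5 (adjusted p 0.0503 to 0.157), and for Prkag1 without sham saline 1, 3 or 5 or TAC saline 1, 3, 4 or 5 (adjusted p 0.0672 to 0.120).

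NMRK2 protein is known to bind the integrin alpha7 beta1 pair of muscle, whose 6 listed genes were all tested. Itgb1, the beta1 chain, rose by 0.33 ± 0.08 (SE) on the log2 scale in TAC saline and 0.33 ± 0.08 in TAC NRG against sham saline. Its level was 208 ± 12.7 CPM in TAC NRG, 209 ± 25.5 CPM in TAC saline and 166 ± 10.2 CPM in sham saline (SD, n = 5 each). Lamc1, a laminin chain the pair can bind, rose by 0.48 ± 0.10 in TAC saline, and Itga7, the alpha7 chain, rose by 0.44 ± 0.09 in TAC NRG. All 4 of these calls held in all settings run. Over the 7 lists, 16 of 78 tested genes passed in TAC saline against sham saline (20.5%, beside 10.7% of all genes) and 14 in TAC NRG against sham saline (17.9%, beside 16.1%). None of the 78 passed limma between TAC NRG and TAC saline, where 1.30% of all genes did, and 13 had an unadjusted p under 0.05, where 15.3% did.

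Settings other than left-out libraries ended further calls of these lists, each at the limma adjusted p given. In TAC saline against sham saline, scaling by total reads alone ended those of Art3 (0.0793), Prdx5 (0.164), Prkaa2 (0.211) and Prkag1 (0.167). Prkaa2 and Prkag1 also missed with total reads free of mitochondrial genes (0.0902 and 0.0629). Testing with voom or without a filter ended the calls of Nnmt and Prkag2 (0.0518 to 0.0607), a pseudocount of 1 CPM ended that of Prkag2 (0.0509), and Nudt5 missed without a filter (0.0508). In TAC NRG against sham saline, scaling by total reads alone ended the calls of Art4 (0.0902) and Parp8 (0.0868). Art4, Nnmt, Parp8 and Pnp missed without a filter (0.0517 to 0.0565), and Nnmt and Parp8 when TAC saline was left out of the fit (0.0751 and 0.0543). Pnp also missed with total reads free of mitochondrial genes (0.0783), Nnmt with voom (0.0629), and Mthfd2 with voom (0.0636) or without TAC NRG 4 and 5 (0.102).

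**Figure D5:**
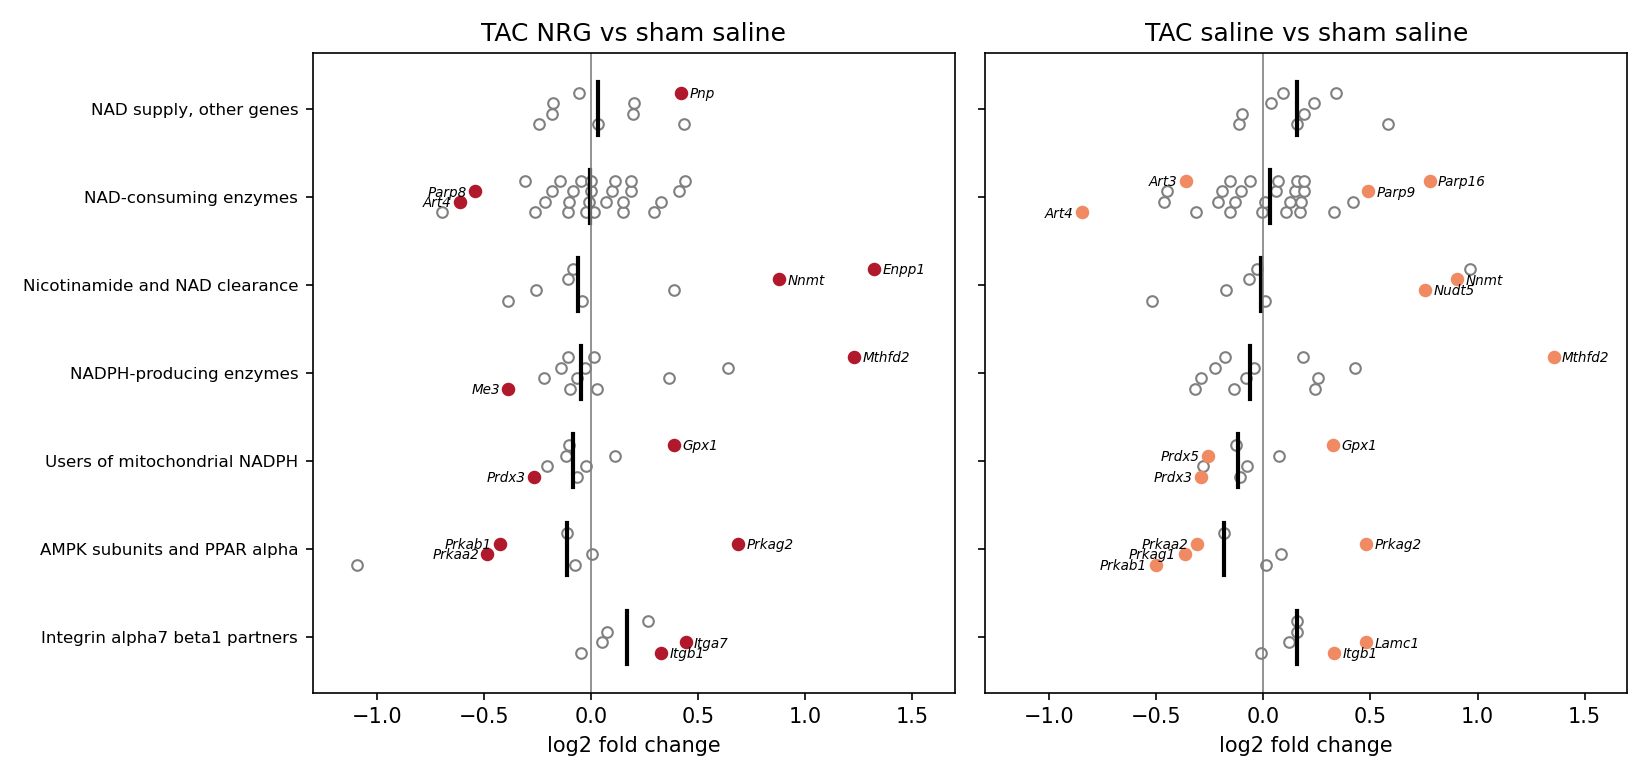
log2 fold change of each tested gene of the 7 lists in TAC NRG against sham saline (left) and TAC saline against sham saline (right); filled named points passed limma at an adjusted p of 0.05, open points did not, and black bars are list medians. Filled points lie on both sides of 0 in 3 of the 7 lists of each panel, and list medians stay between -0.19 and 0.17.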

How the data were processed

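BRB-seq of frozen left ventricle gave 15 libraries, with RNA taken by Tri Reagent per the labels' protocols. GRCm39 is the build in the submitters' processing notes. No aligner or counter is given in the sources used here. Each deposited log2 value is, as its spacing shows, the authors' log2 of a library factor times the reads plus 0.5. Whole reads were recovered by undoing that factor, with 98.9% to 99.5% of values within 0.05 of a whole read. Depth was 2.02 to 5.62 M reads.

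Genes needed 2.95 reads per M in 5 libraries and 15 reads in total, which left out 4240. A trended limma fit (limma 3.58.1, R 4.3.3) was made to all 15 libraries and adjusted by Benjamini-Hochberg over 11018 genes at 0.05, two-sided. Library measures were tested by exact permutation. The test was checked on simulated data. Tables and figures used Python 3.11.15, pandas 2.3.3, numpy 2.4.6 and matplotlib 3.10.9. The genes and lists were chosen with earlier results of these data known. Named list genes are all those past the threshold. Same-numbered libraries were not paired in the main fit. Alternatives covered scaling, test, filter, pseudocount, groups in the fit, replicate numbers and leaving out libraries.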

Additional observations from a re-analysis of the deposited data

Results flagged for a closer look

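Nmnat3 in TAC saline 3 stood apart from its group, at 24.8 CPM against 16.9 to 18.6 CPM in the other 4 TAC saline libraries. The gap divided by the range of the group was 0.783, above Dixon's 95% critical value for 5 samples. It was the only one of 21 groups of 5 tested, where chance flags about 1 in 20. TAC saline 3 also had the lowest Nmrk2 and the highest Nampt among the TAC saline libraries.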

How the results depend on the processing

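Nmrk2 kept its direction in all comparisons under the 23 alternatives, at 1.94 to 2.64 on the log2 scale in TAC saline against sham saline, 0.59 to 1.30 in TAC NRG against TAC saline and 2.93 to 3.54 in TAC NRG against sham saline. Over all genes, leaving out 1 library moved the number passing between 636 and 1495 in TAC saline against sham saline (708 without TAC saline 1 and 636 without TAC saline 5) and between 58 and 229 in TAC NRG against TAC saline. That number was 77 with sham left out of the fit and 39 without TAC NRG 4 and 5. Of the 6 other genes, 1 to 3 fell in TAC saline with 1 library left out. Differences that missed the threshold changed sign: in TAC NRG against TAC saline, Nmrk1 to 0.038 and Nnt to 0.039 without TAC NRG 4 and 5, and Nmnat1 to -0.0040 with total reads free of mitochondrial genes. With 1 library left out Nmnat1 lay between -0.050 and 0.143 and Nadk2 between -0.088 and 0.195 there, and Nmrk1 between -0.351 and 0.109 in TAC saline against sham saline. The cause was not tested.

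Under scaling by total reads alone, the median of all genes was 0.10 on the log2 scale in TAC saline against sham saline, and 84.9% of calls there were higher, against 60.4% on the authors' scaling. In TAC NRG against sham saline the shares were 75.9% and 54.2%. With total reads free of mitochondrial genes, 32.6% of calls in TAC NRG against TAC saline were higher, against 51.7%. Same-numbered libraries deviated from their group means with correlations of -0.246 to 0.0795, and the main fit did not pair them. Differently numbered libraries were not compared in this way, and whether the numbers mark a shared batch was not tested. With replicate number as a block 1049, 111 and 1645 genes passed in TAC saline against sham saline, TAC NRG against TAC saline and TAC NRG against sham saline, against 1180, 143 and 1777. Under that block Nmnat1 in TAC saline missed the threshold (limma adjusted p = 0.0651) and Nnt in TAC NRG passed it (limma adjusted p = 0.0469). Gpx1, Nnmt, Prdx5, Prkaa2, Prkag1 and Prkag2 in TAC saline and Nnmt and Pnp in TAC NRG missed it too. Nmrk1 and Nnt rest on few reads, which limits what can be detected.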
